A study of Mus musculus with 9 samples.

Results

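Imprinted genes are expressed from only 1 of the 2 parental alleles, and their levels were followed here in mouse embryonic stem (ES) cells that carried EGFP, wild-type Nanog or a Nanog mutant. A list of 36 well-known imprinted genes was looked up by gene name, and 29 were found among the 33495 genes of the table. They fall into 16 clusters or single loci, with 10 genes expressed from the maternal allele, 18 from the paternal allele and 1, Gnas, with transcripts of both kinds. Rian, Mirg, Peg10, Kcnq1ot1, Airn, Nespas and Peg13 were not matched by name. Of the 29, 28 reached 1 CPM (the count scaled to library size) in at least 3 libraries and were tested among 13996 genes. Peg12 did not, at 1 to 8 counts per library.

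RF8 ES cells, a mouse line, had been transfected with EGFP, with Nanog WT or with Nanog L122A, a form with a single substitution that the series groups with homeodomain mutants. Nanog is a transcription factor that holds ES cells in the pluripotent state, and it binds DNA through its homeodomain. Each transfectant was grown in the routine serum culture with 1000 units of leukaemia inhibitory factor (LIF) per ml and puromycin, in the same medium lacking LIF, or in LIF-free medium containing retinoic acid (RA) at 5 µM. LIF is a cytokine that maintains ES cells, and RA is an inducer of their differentiation. There was 1 library for each of the 9 combinations and no replicate, and the labels give neither the time in each culture, nor the species of the transfected Nanog, nor how many independent lines were used. The columns read as the LIF culture carry a name that is in no label and were assigned by elimination. Total gene counts ran from 24166395 to 28714988 per library.

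Genomic imprinting rests on DNA methylation at CpG dinucleotides that is set in the egg or the sperm and kept after fertilisation. The methylation state of a control region decides which nearby genes are expressed from its own chromosome, so the genes of a cluster often share 1 switch while being expressed from opposite alleles. Many imprinted genes act on growth, with paternally expressed genes such as Igf2 tending to promote it and maternally expressed genes such as H19, Igf2r, Cdkn1c, Phlda2 and Grb10 tending to restrain it. The counts do not separate the alleles, so every value below is the sum of both. In bulk RNA, more cells of a type and more RNA per cell cannot be told apart.

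The promoters of 4 members are shown because Peg3, Plagl1 and Dlk1 had the largest called rises with RA among members with 1 start in the RefSeq table, and Phlda2 had the largest fall. They are the 250 bases before the RefSeq transcription start in GRCm38.p6, printed in the direction of the gene, and capitals mark CpG dinucleotides, the letters that carry the imprint. The promoters of Peg3 and Plagl1 lie in the methylated control regions of their loci. Positions are chr7:6730420-6730669 (minus strand) for Peg3, chr10:13090582-13090831 (plus strand) for Plagl1, chr12:109452573-109452822 (plus strand) for Dlk1 and chr7:143502525-143502774 (minus strand) for Phlda2. All other positions are those of the deposited table, in mm9.
Peg3: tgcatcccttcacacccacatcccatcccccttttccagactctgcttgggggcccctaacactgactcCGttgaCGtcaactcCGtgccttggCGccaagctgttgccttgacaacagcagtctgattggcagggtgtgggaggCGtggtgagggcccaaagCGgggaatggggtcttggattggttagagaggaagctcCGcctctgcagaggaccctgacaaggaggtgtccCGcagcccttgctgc
Plagl1: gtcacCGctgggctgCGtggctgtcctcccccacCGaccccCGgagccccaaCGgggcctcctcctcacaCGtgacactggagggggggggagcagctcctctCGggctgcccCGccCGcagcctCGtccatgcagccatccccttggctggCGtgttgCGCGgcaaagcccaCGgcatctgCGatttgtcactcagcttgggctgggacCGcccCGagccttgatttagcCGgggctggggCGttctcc
Dlk1: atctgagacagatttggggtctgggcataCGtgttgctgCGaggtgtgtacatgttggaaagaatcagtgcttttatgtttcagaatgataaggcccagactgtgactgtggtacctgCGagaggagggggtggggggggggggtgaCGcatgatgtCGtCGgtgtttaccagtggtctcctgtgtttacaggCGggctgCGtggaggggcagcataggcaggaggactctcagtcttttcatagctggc
Phlda2: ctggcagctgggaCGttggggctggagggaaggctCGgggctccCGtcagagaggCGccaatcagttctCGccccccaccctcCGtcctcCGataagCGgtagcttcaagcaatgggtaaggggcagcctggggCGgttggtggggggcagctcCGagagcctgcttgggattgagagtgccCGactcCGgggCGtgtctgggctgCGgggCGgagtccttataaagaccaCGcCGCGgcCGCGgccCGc

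The printed stretches held 8 CpG dinucleotides in Peg3, 19 in Plagl1, 8 in Dlk1 and 21 in Phlda2. In windows of 300 bases that also take in the first 50 transcribed bases, these genes had 13, 26, 9 and 26, beside a median of 7 over 32851 RefSeq promoters. Of the 29 members, 24 had such a window. The letters TGCCGC, the motif bound by the imprint protector ZFP57 when methylated, were searched on both strands and stood in a window of 10 of these 24 members, Plagl1 among them, beside 11.6% of all promoters. Members with several starts had several windows, so this count and that share are not on the same footing. The retinoic acid response element spellings AGGTCANNNNNAGGTCA and AGGTCANNAGGTCA were in no member's window and in 0.00913% of all promoters each. No match says only that these exact letters were not in these windows. The starts of Peg3 and Usp29 are 164 bases apart and point away from each other, so that their windows share 263 of 300 bases.

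Libraries are named by transfectant and culture. With RA the sum of 8 ES cell markers was 15.8, 114 and 573 CPM in EGFP, WT and L122A, beside between 1876 and 5334 in the 6 libraries without RA. Nanog itself stood at 0.871, 195 and 259 CPM in the same RA libraries. It was at 384, 222.5 and 239 CPM in EGFP, WT and L122A with LIF, and at 290, 168 and 130 CPM without LIF. The Nanog transfectants thus had more Nanog RNA than EGFP only with RA. The sum of 10 fibroblast markers was 479, 99.0 and 67.5 CPM with RA and 14.9 to 37.2 without, and 10 extraembryonic endoderm markers summed to 135, 428 and 117 with RA and 6.73 to 55.1 without. Lum and Afp, defining markers of fibroblasts and of visceral endoderm, stayed under 1 CPM in all 9 libraries. The sum of 7 trophoblast markers was 53.0, 58.0 and 26.1 CPM with RA and 2.83 to 16.5 without. Most of the RA sum was Gata3, a transcription factor gene that other tissues use too, at 43.9, 55.2 and 24.3 CPM with RA and 0.775 to 4.16 without. Of the other 6, Cdx2, Elf5 and Prl3d1 were under 1 CPM throughout, and Tpbpa was at 0. Krt7 and Hand1 exceeded 1 CPM in at least 1 library each. They made up most of the highest sum without RA, 16.5 CPM in EGFP without LIF. The sum of 7 neural markers was 216.5, 66.5 and 54.1 CPM with RA and 32.8 to 86.9 without, so only EGFP with RA lay above that range.

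Imprinted genes spanned a wide range in these cells. Of the 29, 22 exceeded 10 CPM in at least 1 library and 11 exceeded 100 CPM. Per transcript length, the mean over the 3 LIF libraries was highest for Snrpn, a splicing protein gene, at 88.8 FPKM, followed by Mest at 49.1 and Phlda2 at 48.9. Over the 3 RA libraries the order was different, with H19 at 318 FPKM, Mest at 269 and Peg3 at 215. By count, Peg3 was the 9th most abundant of all genes in EGFP with RA, the 8th in WT and the 35th in L122A.

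**Figure D1:**
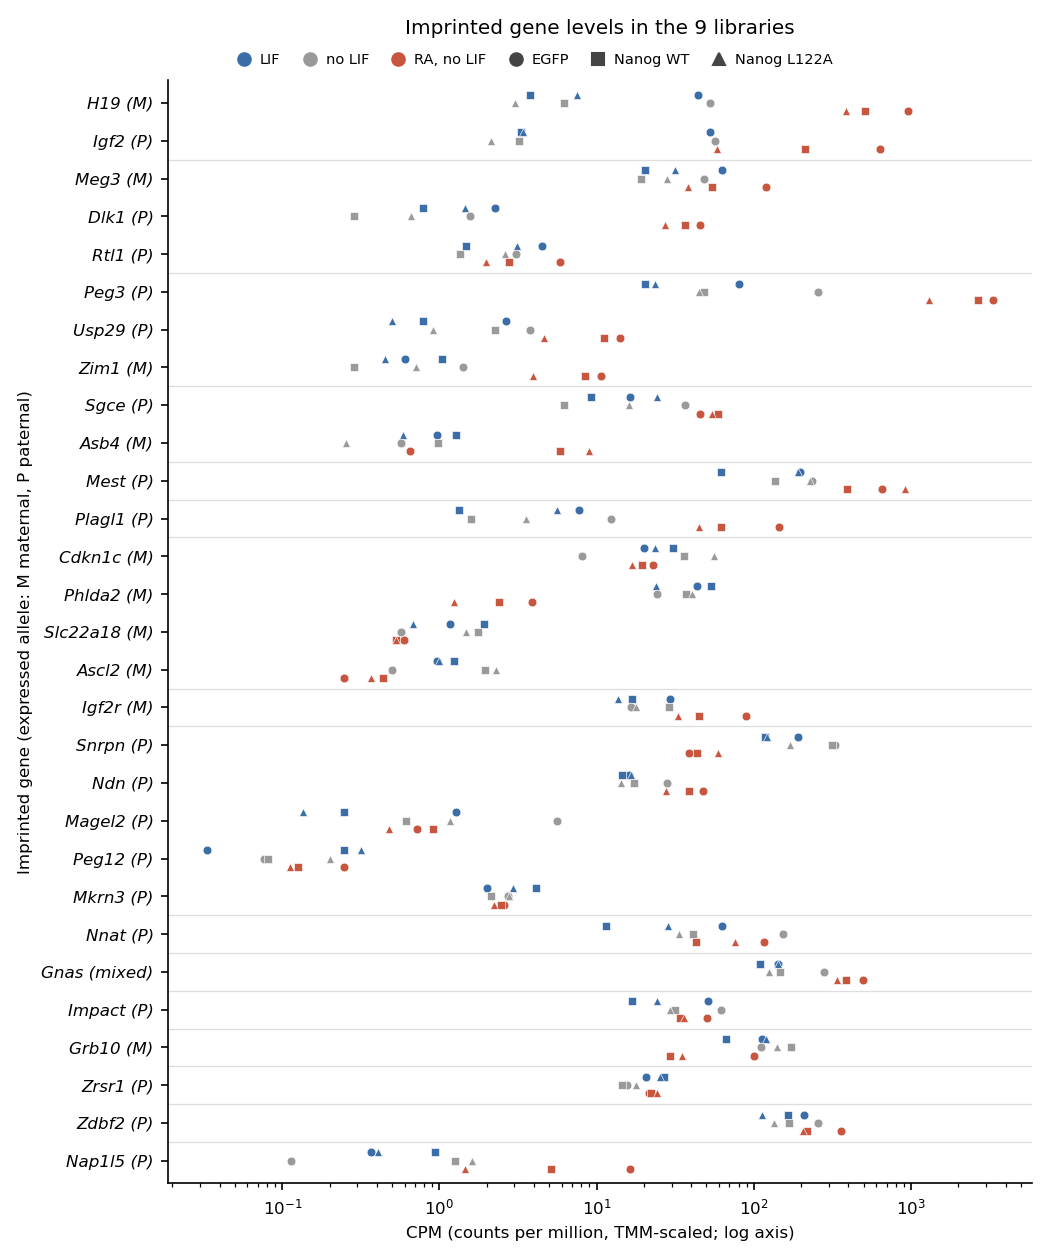
CPM of the 29 imprinted genes (rows, log axis, grouped by cluster) in the 9 libraries, with colour for the culture and shape for the transfectant. H19, Igf2, Dlk1, Peg3 and Plagl1 have their 3 RA points to the right of all points without RA, and Phlda2 and Snrpn have them to the left.

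The first comparison asked which imprinted genes changed with RA, set against LIF culture across the 3 transfectants. Of the 28 tested, 19 passed the test (edgeR's quasi-likelihood test in an additive model of culture and transfectant, adjusted p under 0.05), 16 higher and 3 lower with RA. This stands beside 48.2% of all 13996 genes tested, 24.5% higher and 23.8% lower. The median log2 fold change was 1.31 over the members and 0.01 over all genes. Zim1, Asb4, Magel2 and Nap1l5 entered the test only because RA libraries counted towards the minimum. Among the 24 that reached it without the RA libraries, 14 were higher and 3 lower, beside 48.0% called of the 13076 genes passing in the same way. The p-values ask whether a change repeats over the 3 transfectants, not over replicate cultures.

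By expressed allele, 11 of 17 paternally expressed members rose and 1 fell, and 4 of 10 maternally expressed members rose and 2 fell. Without the 4 members that needed RA libraries to enter the test, these counts were 10 of 15 higher and 1 lower, and 3 of 8 higher and 2 lower. The difference between the alleles was not tested. The 3 RA values lay wholly above the 3 LIF values for 13 members, beside 29.8% of all genes, and wholly below for 4, beside 29.3%. Among the 24 members that reached the minimum without RA these were 11, beside 27.7%, and 4, beside 31.3%. Both directions occurred inside the maternal group, where H19 rose and Phlda2 fell. Against culture without LIF, which separates RA from the loss of LIF, 19 members also passed, 15 higher and 4 lower, beside 44.5% of all genes (22.6% higher, 21.9% lower). Among the 24, 13 were higher and 4 lower. Of the 13076 genes passing in the same way, 44.5% were called, 2759 higher and 3063 lower. The 2 comparisons share the RA libraries.

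The H19 and Igf2 pair shares 1 control region and an enhancer set, with H19, a noncoding RNA, read from the maternal chromosome and Igf2, a fetal growth factor, from the paternal one. H19 (ENSMUSG00000000031, chromosome 7, 149761433 to 149764048) stood at 44.3, 3.79 and 7.53 CPM with LIF in EGFP, WT and L122A, at 52.9, 6.20 and 3.04 CPM without LIF, and at 958, 511 and 389 CPM with RA. Its 3 RA values lay above the other 6, and within every culture EGFP was the highest. It rose 55.8-fold from LIF to RA (log2 fold change 5.80, SE 0.64, adjusted p = 5.73e-04). From no LIF to RA the rise was 58.4-fold.

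Igf2 (ENSMUSG00000048583, chromosome 7, 149836672 to 149852721) was at 52.5, 3.30 and 3.38 CPM with LIF, at 57.1, 3.22 and 2.13 CPM without LIF, and at 639.5, 211 and 58.6 CPM with RA. The lowest RA value, in L122A, was just above the EGFP value without LIF, so the RA libraries cleared the others only narrowly. Igf2 rose 25.2-fold from LIF to RA (log2 fold change 4.66, SE 0.54, adjusted p = 6.57e-04). Both genes of the pair thus passed in the same direction although they are read from opposite chromosomes.

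Peg3, a zinc-finger protein gene of the paternal allele, had the largest fold change of the members against LIF. Peg3 (ENSMUSG00000002265, chromosome 7, 6656602 to 6683132) was at 80.95, 20.2 and 23.6 CPM with LIF, at 258, 48.3 and 44.9 CPM without LIF, and at 3316, 2654 and 1299 CPM with RA in EGFP, WT and L122A. The RA libraries were far above the rest, and L122A was the lowest of them. The rise from LIF was 69.9-fold (log2 fold change 6.13, SE 0.45, adjusted p = 2.01e-04). Over no LIF it was 28.2-fold (adjusted p = 3.71e-04).

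Its neighbours moved the same way. Usp29, a ubiquitin protease gene that starts head to head with Peg3, was at 14.2, 11.1 and 4.65 CPM with RA and at 0.496 to 3.78 CPM in the other libraries, and rose 8.59-fold over LIF (adjusted p = 6.70e-04). Zim1, a maternally expressed zinc-finger gene of the same cluster, was at 10.7, 8.41 and 3.95 CPM with RA and at 0.286 to 1.41 CPM elsewhere, and rose 10.4-fold (adjusted p = 0.00265). Zim1 reached the count minimum only through its RA libraries, so its call against the others is no independent evidence. How reads of neighbouring genes on opposite strands were assigned is not given in the sources used here.

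In the Dlk1-Meg3 cluster the 3 members found differed. Dlk1 (ENSMUSG00000040856, chromosome 12, 110691058 to 110698901), a paternally expressed transmembrane regulator of differentiation, was at 2.27, 0.787 and 1.44 CPM with LIF, at 1.56, 0.286 and 0.658 CPM without LIF, and at 45.4, 36.6 and 27.4 CPM with RA. It rose 26.3-fold over LIF (log2 fold change 4.72, SE 0.42, adjusted p = 2.82e-04). Over no LIF the rise was 49.8-fold. The RA values lay far above every other value and were close to each other.

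Meg3, the maternally expressed long noncoding RNA of the cluster, was already abundant in ES cells. It was at 62.5, 20.2 and 31.4 CPM with LIF, 48.6, 19.1 and 27.9 CPM without LIF, and 119, 54.4 and 38.4 CPM with RA, so that the groups overlapped between transfectants. Its 1.87-fold rise over LIF (adjusted p = 0.0155) was lost without WT LIF or without WT RA, with an adjusted p of up to 0.0937. Rtl1, a paternally expressed retrotransposon-derived gene, was at 5.82, 2.78 and 1.99 CPM with RA and 1.35 to 4.51 CPM elsewhere and did not pass (log2 fold change 0.25, adjusted p = 0.646).

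Plagl1 and Mest are single paternal loci. Plagl1 (ENSMUSG00000019817, chromosome 10, 12810496 to 12851500), a zinc-finger transcription factor that restrains the cell cycle, was at 7.76, 1.33 and 5.59 CPM with LIF, 12.3, 1.59 and 3.54 CPM without LIF, and 145, 61.7 and 45.0 CPM with RA. The RA values did not overlap the others, and the rise over LIF was 18.8-fold (log2 fold change 4.23, SE 0.50, adjusted p = 6.13e-04). Mest, which encodes a hydrolase-like protein of mesoderm, was at 198, 61.5 and 190 CPM with LIF, 235, 137.5 and 228 CPM without LIF and 658, 391.5 and 914 CPM with RA, a 4.62-fold rise over LIF (adjusted p = 4.51e-04). It was the only member above 300 CPM with RA that was higher in L122A than in EGFP.

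Smaller rises over LIF passed for Gnas, Igf2r, Nnat, Ndn and Zdbf2. Gnas, which encodes the stimulatory G protein alpha subunit, rose 3.05-fold (adjusted p = 0.00125), being between 109 and 143 CPM with LIF and between 339.5 and 492 CPM with RA. Igf2r, the maternally expressed receptor that clears IGF2, rose 2.72-fold (adjusted p = 0.00895), being between 13.7 and 29.3 CPM with LIF and between 32.9 and 88.8 CPM with RA. The call for Igf2r was lost without WT LIF (adjusted p = 0.0512). Ndn, a growth-restraining gene of the Snrpn cluster, rose 2.33-fold (adjusted p = 0.00385), and its RA values of 27.6 to 47.8 CPM did not overlap its LIF values of 14.5 to 16.7 CPM.

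Nnat, a proteolipid gene of neural and endocrine cells, rose 2.65-fold over LIF (adjusted p = 0.00831) but not over no LIF (log2 fold change 0.25, adjusted p = 0.544). Its level in EGFP was 62.7 CPM with LIF, 153 without and 116 with RA. In WT these were 11.5, 41.0 and 43.2 CPM. In L122A they were 28.5, 33.4 and 76.1 CPM, so that there most of the rise came with RA. Zdbf2, a paternally expressed gene, rose 1.61-fold over LIF (adjusted p = 0.0101), which was lost without L122A LIF (adjusted p = 0.0575).

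Some rises rested on low or uneven counts. Sgce, the sarcoglycan epsilon gene, rose 3.60-fold over LIF (adjusted p = 0.0201), to 45.5, 59.4 and 54.0 CPM with RA. That call was lost when WT LIF, WT RA or EGFP LIF was dropped, at an adjusted p of up to 0.101. Nap1l5, a nucleosome assembly gene inside Herc3, was at 16.3, 5.10 and 1.46 CPM with RA and 0.114 to 1.62 CPM elsewhere. Its call over LIF (12.7-fold, adjusted p = 0.0352) was lost under 6 of the 9 left-out libraries, at up to 0.151. Asb4, a maternally expressed ubiquitin ligase adaptor, passed only over no LIF (7.44-fold, adjusted p = 0.033) and was lost without any of the 6 WT and L122A libraries (up to 0.142). It stayed at 0.653 CPM in EGFP with RA while reaching 5.82 in WT and 8.94 in L122A.

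The members that fell with RA lie in 3 clusters. Phlda2 (ENSMUSG00000010760, chromosome 7, 150687449 to 150688446), a maternally expressed growth inhibitor of the placenta, was at 43.3, 53.4 and 24.1 CPM with LIF, 24.2, 37.3 and 40.5 CPM without LIF, and 3.89, 2.41 and 1.23 CPM with RA. All RA values were below all others. Phlda2 fell 16.1-fold from LIF (log2 fold change -4.01, SE 0.45, adjusted p = 5.18e-04). The fall from no LIF was 14.7-fold.

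The other maternal genes of that domain did not all do so. Cdkn1c, a cyclin-dependent kinase inhibitor, was at 22.8, 19.4 and 16.7 CPM with RA and 20.0, 30.7 and 23.6 CPM with LIF and did not pass (log2 fold change -0.25, adjusted p = 0.708). Slc22a18, a transporter gene, was under 2 CPM in every library and did not pass either (log2 fold change -1.09, adjusted p = 0.158). Ascl2, a trophoblast transcription factor, was at 0.249 to 0.438 CPM with RA and 0.970 to 1.23 CPM with LIF, and fell 3.17-fold (adjusted p = 0.045). The Ascl2 call was lost under 8 of the 9 left-out libraries (adjusted p up to 0.18).

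Snrpn (ENSMUSG00000000948, chromosome 7, 67127387 to 67149997) was at 192, 119 and 121 CPM with LIF, 331, 313 and 169 CPM without LIF, and 38.6, 43.3 and 59.4 CPM with RA. It fell 2.95-fold from LIF (log2 fold change -1.56, SE 0.32, adjusted p = 0.00467). The fall from no LIF was 5.56-fold (adjusted p = 0.00105), while Ndn in the same cluster and from the same allele rose. Magel2 and Mkrn3, also paternal genes of that cluster, did not pass (adjusted p = 0.318 and 0.574 against LIF). Snrpn shares exons with Snurf, so reads of the pair may be split between them.

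Grb10, an adaptor that dampens insulin and IGF signalling, fell only against no LIF (2.96-fold, adjusted p = 0.0226). Its RA levels were 101, 29.5 and 34.9 CPM in EGFP, WT and L122A, beside 112, 172 and 140 CPM without LIF, so that EGFP barely moved. The call was lost without WT no-LIF, WT RA, L122A no-LIF or L122A RA (adjusted p up to 0.114). Impact, an inhibitor of a stress kinase, and Zrsr1, a splicing factor gene inside Commd1, did not pass in either comparison with RA.

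**Figure D2:**
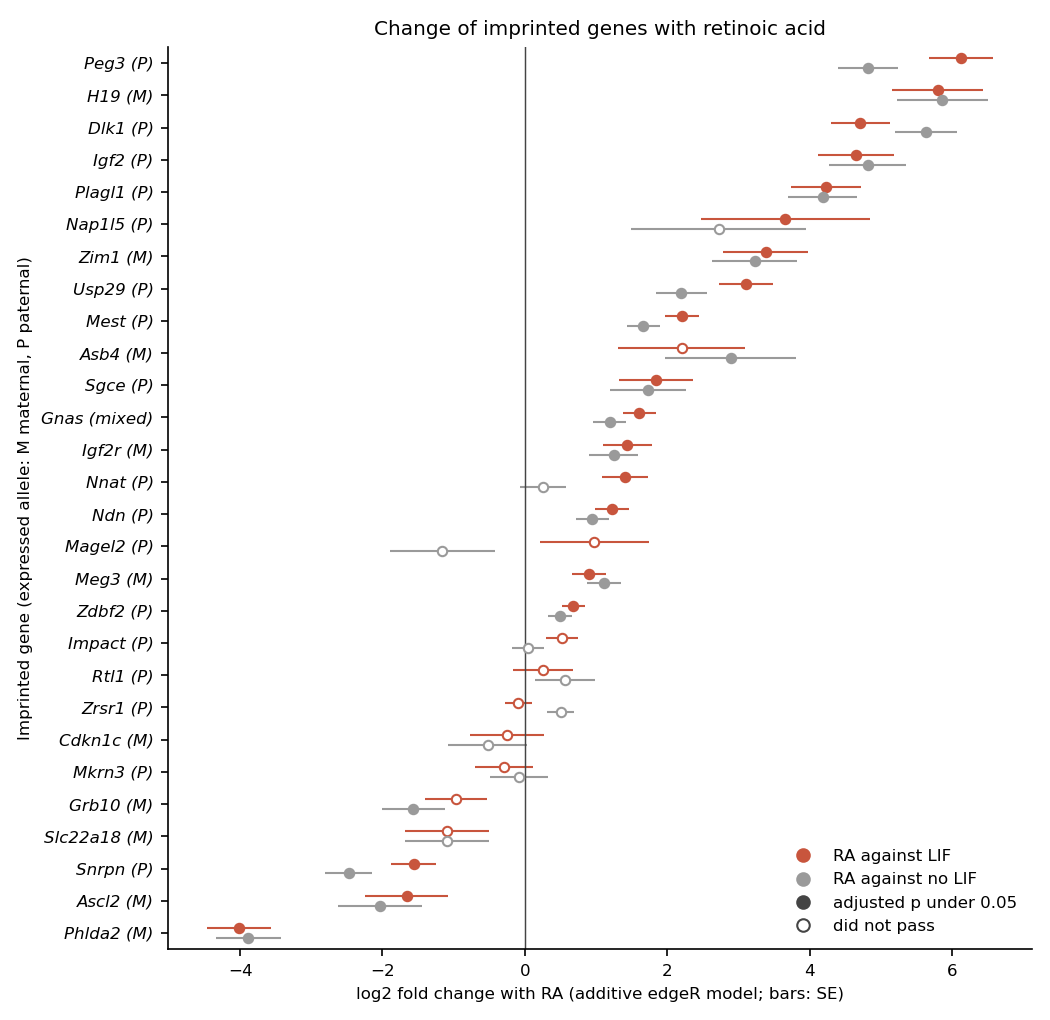
Log2 fold change of the 28 tested imprinted genes with RA against LIF (red) and against no LIF (grey), with SE bars, filled where the adjusted p was under 0.05. Peg3 is at the top at 6.13 and Phlda2 at the bottom at -4.01, and both alleles appear at either end.

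Of the 19 members called against LIF, 13 stayed called under every alternative and every left-out library: Dlk1, Gnas, H19, Igf2, Mest, Ndn, Nnat, Peg3, Phlda2, Plagl1, Snrpn, Usp29 and Zim1. Total-count scaling, used in place of trimmed means, moved the median of all genes by 0.38 (log2) and the split of all calls from 3423 higher and 3328 lower to 4501 and 1947. The members then split 17 higher and 2 lower. Against no LIF the shift was 0.41, all genes split 4453 higher and 1679 lower in place of 3168 and 3067, and the members split 16 and 3. The fibroblast and endoderm marker sums moved with RA as well. Over LIF, 7 of 8 tested fibroblast markers and 7 of 8 endoderm markers rose, or 4 of 5 and 3 of 4 among those at the minimum without RA. Of 5 tested neural markers, 2 rose and 1 fell, or 1 and 1 of the 4 at the minimum without RA. The part of cell type in the changes above was not tested.

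LIF withdrawal alone was the second comparison, and no imprinted gene passed (edgeR), where 0.0714% of all genes did. At an unadjusted p under 0.05 there were 7 members, beside 8.73% of all genes, and DESeq2 called 2, Peg3 and Nnat, beside 1.99% of all genes. Peg3 went from 80.95 to 258 CPM in EGFP, from 20.2 to 48.3 in WT and from 23.6 to 44.9 in L122A (log2 fold change 1.31, adjusted p = 0.347 in edgeR). Nnat went from 62.7 to 153, from 11.5 to 41.0 and from 28.5 to 33.4 CPM (1.15, adjusted p = 0.347). The 3 no-LIF values lay wholly below the 3 LIF values for 1 member, Zrsr1, beside 5.29% of all genes, and wholly above for none.

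The third comparison set each Nanog transfectant against EGFP across the 3 cultures. Of the 28 members, 11 were lower in both WT and L122A than in EGFP in every culture, beside 10.7% of all genes, and 1, Ascl2, was higher in both, beside 9.45%. The 11 were H19, Igf2, Meg3, Dlk1, Rtl1, Peg3, Usp29, Plagl1, Nnat, Impact and Zdbf2, of which H19 and Meg3 are maternally expressed. Under 2 other scalings, tried after the data had been seen, the number was 12 (11.6% of genes) and 13 (12.4%). These are counts of single libraries with no test. WT and L122A are compared with the same 3 EGFP libraries.

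L122A against EGFP gave 5 calls, all lower, beside 2.88% of all genes (1.99% lower). Igf2 was 17.65-fold lower (log2 fold change -4.14, SE 0.52, adjusted p = 0.0116), H19 6.52-fold (-2.70, SE 0.57, adjusted p = 0.0494), Usp29 4.07-fold (-2.02, adjusted p = 0.0316), Peg3 3.86-fold (-1.95, adjusted p = 0.0358) and Zdbf2 1.82-fold (-0.86, adjusted p = 0.0358). Igf2 was called unless L122A no-LIF or L122A RA was left out. The number called was 0 without either of these and 7 without EGFP RA. It was 1 when L122A LIF, WT LIF or WT no-LIF was dropped, and 2 when WT RA or one of EGFP LIF and EGFP no-LIF was dropped. DESeq2 called 9, beside 10.3% of all genes, total-count scaling left 2 (Igf2, Zdbf2) and limma on FPKM left 1 (Igf2). Other members of the 2 clusters did not pass, with Zim1 at a log2 fold change of -1.02 (adjusted p = 0.39).

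WT against EGFP gave no call in edgeR, where 0.322% of all genes were called, although 14 members had an unadjusted p under 0.05, beside 11.9% of all genes. Igf2 had a log2 fold change of -3.17 (adjusted p = 0.059), Nnat of -1.92 (0.0639), Meg3 of -1.35 (0.0698) and H19 of -2.56 (0.117). DESeq2 called 8 members lower, namely H19, Igf2, Peg3, Plagl1, Meg3, Impact, Mest and Nnat, beside 4.39% of all genes. Leaving out EGFP RA gave 5 edgeR calls (H19, Peg3, Impact, Igf2, Nnat), and leaving out WT RA, L122A no-LIF or L122A RA gave 1 each.

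Within single cultures the H19 and Igf2 differences were large, and the ratios below carry 95% Poisson intervals that cover counting error only. With LIF, Igf2 was 15.9-fold lower in WT than in EGFP (interval 12.5 to 20.7) and 15.5-fold lower in L122A (12.3 to 19.8). Without LIF it was 17.7-fold (14.1 to 22.5) and 26.9-fold lower (19.8 to 37.4), and with RA 3.03-fold (2.95 to 3.12) and 10.9-fold (10.4 to 11.4). H19 was 11.7-fold and 5.88-fold lower with LIF, 8.53-fold and 17.4-fold without, and 1.88-fold and 2.47-fold with RA. Both transfectants thus lay well below EGFP in the ES cell cultures, and the H19 ratios were nearest to 1 with RA.

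Peg3 stood at a ratio of 0.250 to EGFP in WT with LIF and was 3.43-fold lower in L122A. It was 5.34-fold and 5.75-fold lower without LIF, and 1.25-fold and 2.55-fold lower with RA. Plagl1 was 5.84-fold and 1.39-fold lower with LIF, 7.74-fold and 3.48-fold without, and 2.34-fold and 3.21-fold with RA. Mest separated the 2 Nanog forms, at 3.22-fold lower in WT but 1.04-fold lower in L122A with LIF, and at 1.68-fold lower in WT but 1.39-fold higher in L122A with RA. Cdkn1c went the other way from most members without LIF, at 4.47-fold higher in WT (3.84 to 5.21) and 6.94-fold higher in L122A (5.99 to 8.08). The other maternal genes of its domain were above EGFP there too. Ratios in WT and L122A were 1.54 and 1.67 for Phlda2 and, at low counts, 3.07 and 2.57 for Slc22a18 and 3.95 and 4.59 for Ascl2. Grb10, Igf2r and Nap1l5 also lay above EGFP in both forms without LIF.

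**Figure D3:**
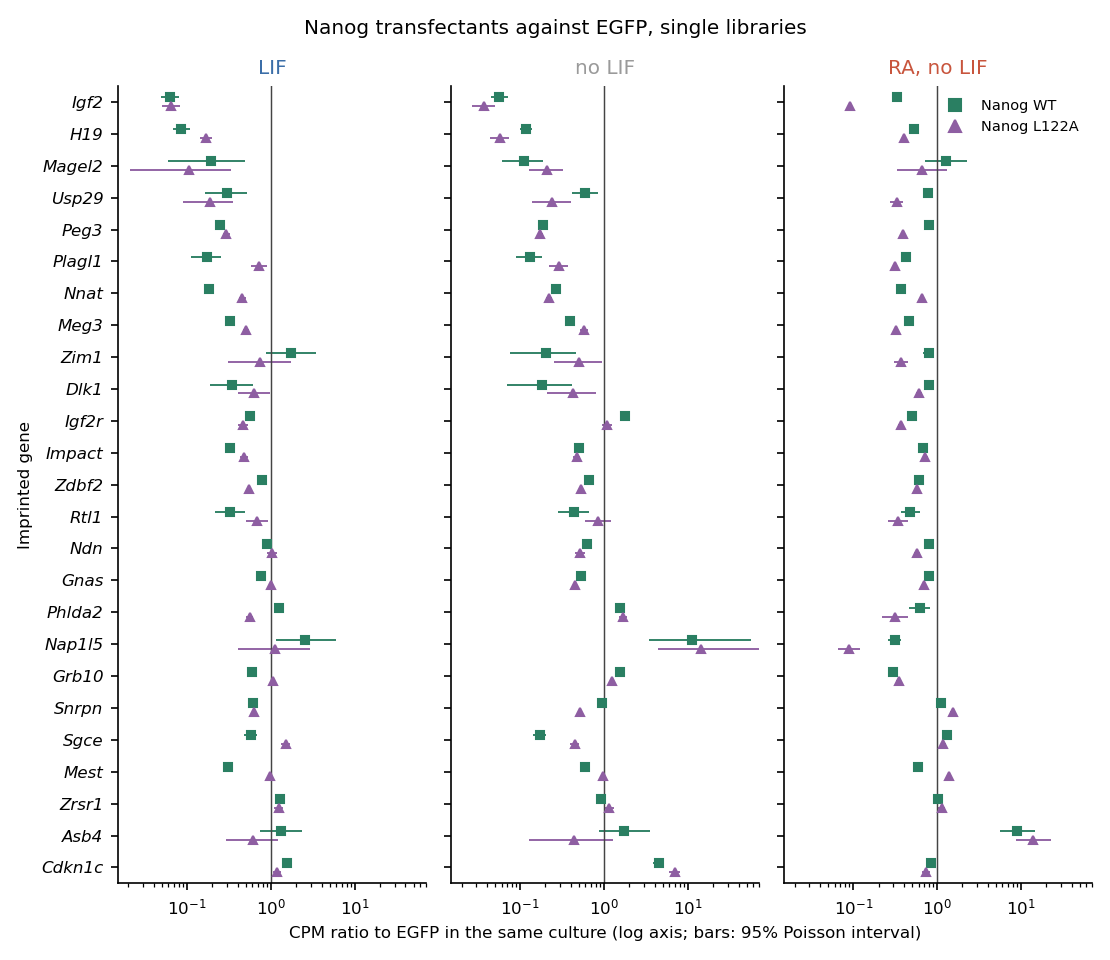
CPM ratio of the Nanog WT (squares) and Nanog L122A (triangles) library to the EGFP library of the same culture, for the imprinted genes with at least 5 CPM in 1 library, with 95% Poisson intervals on a log axis. Igf2 and H19 stand at the top, between 0.0372 and 0.0644 and between 0.0574 and 0.170 in the cultures without RA. Without LIF, Nap1l5 stands farthest right at 11.05 and 14.15, on 3 counts in EGFP, followed by Cdkn1c at 4.47 and 6.94.

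Differences of at least 2-fold were then counted, provided that the higher library had 5 CPM or more. In WT, 8 members lay below EGFP with LIF (3.69% of all genes), 8 without LIF (5.91%) and 7 with RA (4.99%). In L122A, 6 did so with LIF (3.76%), 9 without LIF (7.7%) and 11 with RA (8.35%). The members above EGFP numbered 0 with LIF and 1 in each of the other cultures, for both forms. That 1 member was Cdkn1c without LIF and Asb4 with RA. Of all 13996 genes, 520 were above EGFP with LIF, 803 without LIF and 450 with RA in WT. In L122A these were 444, 989 and 839. For 1 library against another there is no test.

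Fibroblast markers also differed between transfectants, though not all in 1 direction. Of the 10, 5 were lower in both WT and L122A than in EGFP with LIF and 4 higher (Thy1, Postn, Pdgfrb and Twist1), 7 were lower and 1 higher (Thy1) without LIF, and 9 were lower and none higher with RA. The collagen genes differed most in level. Col1a1 was at 19.3 and 14.3 CPM in EGFP with and without LIF and at 2.31 to 3.56 CPM in the 4 matching WT and L122A libraries, and Col1a2 was at 5.25 and 5.07 CPM beside 0.0506 to 0.49 CPM. With RA, Col1a1 stood at 172, 17.2 and 5.10 CPM. With LIF, Thy1 was at 1.37, 4.08 and 11.6 CPM in EGFP, WT and L122A, and Pdgfrb at 0.769, 1.77 and 2.21 CPM. Of the 8 tested fibroblast markers 3 fell in L122A against EGFP, beside 1.99% of all genes, and 1 in WT, where 0.322% of all genes were called in either direction. Col1a2 and Col3a1, which are among these calls, and Prrx1 reached the count minimum only with RA libraries. The part of the fibroblast markers in the lower H19, Igf2 and Peg3 was not tested.

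**Figure D4:**
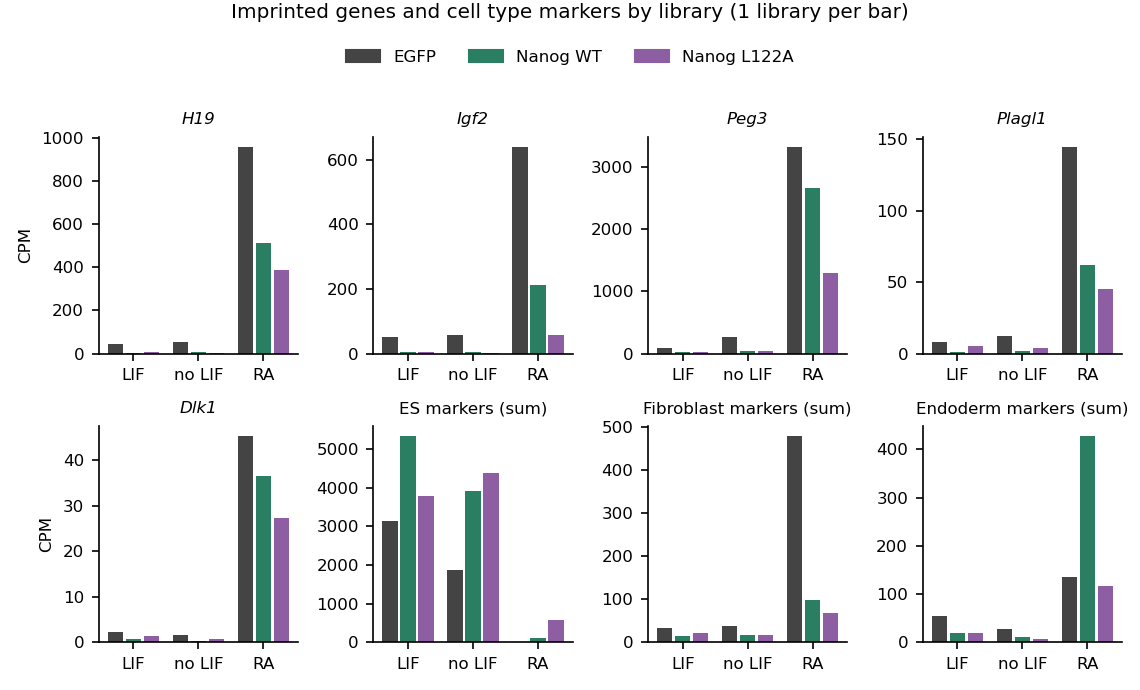
CPM of 5 imprinted genes and summed CPM of 3 marker lists in each library (linear axes from 0, 1 library per bar, no error bars). H19, Igf2, Peg3, Plagl1 and Dlk1 are each highest in EGFP with RA, as is the fibroblast sum at 479 CPM, while the endoderm sum peaks in WT at 428 CPM and ES cell markers persist at 573 CPM in L122A with RA.

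L122A against WT gave no call among the members, and none among all 13996 genes in edgeR (0.0% called). The number of independent lines is not given, so the substitution cannot be told apart from other differences between the 2 transfectants. At an unadjusted p under 0.05 there were 2 members, beside 4.39% of all genes, Mest (log2 fold change 1.18, adjusted p = 0.706) and Usp29 (-1.12, adjusted p = 0.923). DESeq2 called Mest alone of the members, beside 0.364% of all genes. With RA, Igf2 was 3.60-fold lower in L122A than in WT (3.43 to 3.78) and Peg3 2.04-fold lower (2.02 to 2.07), while Mest was 2.33-fold higher, as single libraries. A p above the threshold does not show that WT and L122A act alike.

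The response of the Nanog transfectants was set against that of EGFP in a model of class means, and no member passed for RA (0.00714% of all genes) or for LIF withdrawal (0.0% of all genes). At an unadjusted p under 0.05 there were 4 and 3 members, beside 11.1% and 7.98% of all genes. H19 went up 21.6-fold with RA in EGFP, 135-fold in WT and 51.6-fold in L122A, from much lower starting levels in WT and L122A (log2 difference 1.87, adjusted p = 0.408). Peg3 went up 41.0-fold, 131-fold and 55.0-fold (1.14, adjusted p = 0.472). Asb4 had ratios of 0.674, 4.55 and 15.2 (3.55, adjusted p = 0.381), and Nap1l5 of 44.3, 5.45 and 3.59 (-3.17, adjusted p = 0.41). DESeq2 called no member for RA, beside 1.89% of all genes, and 1 for LIF withdrawal, Cdkn1c, beside 0.857%.

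Beyond these loci, 37 of 40 further imprinted genes were found and 27 tested. With RA, 11 rose and 4 fell against LIF (median log2 fold change 0.65), beside 48.2% called among all genes (24.5% higher, 23.8% lower). Of the 27, 4 (Osbpl5, Tspan32, Calcr and Dcn) reached the count minimum only with RA libraries. Of the other 23, 9 rose and 3 fell, beside 48.0% called of the 13076 genes passing without RA libraries (2957 higher, 3321 lower). Dcn, a collagen-binding proteoglycan gene, rose 44.1-fold (adjusted p = 8.57e-04) to 17.7, 3.94 and 0.785 CPM, with 0 counts in WT and L122A with LIF, and Osbpl5, a lipid transfer gene, rose 13.6-fold (adjusted p = 0.0045). Tspan32 fell 3.42-fold and Mcts2 2.53-fold. Against no LIF, 10 rose and 3 fell, beside 44.5% of all genes, with Atp10a and Commd1 the largest falls (log2 fold change -2.28 and -1.26). In L122A against EGFP, 1 was higher (Tspan32, adjusted p = 0.0421) and 3 lower, beside 2.88% of all genes called (1.99% lower). Dcn and Atp10a were lower by the largest amounts (-4.81 and -2.47, adjusted p = 0.0183 and 0.0358). Dcn reached the count minimum in EGFP and WT libraries but in no L122A library, so this call is no independent evidence. In WT none passed, beside 0.322% of all genes. Tspan32 was at 2.98, 2.68 and 0.981 CPM in L122A with LIF, without LIF and with RA, and at 0.0622 to 0.535 CPM elsewhere. It entered the test only through the L122A libraries, so its call is no independent evidence.

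A further list held 14 genes whose proteins set, keep or remove DNA methylation or protect imprints, among them Zfp57, Dnmt1 and the demethylating enzyme genes Tet1 and Tet2, and all were tested. Against LIF, none rose and 7 fell with RA (median log2 fold change -0.97), and against no LIF 6 fell. Among all genes 48.2% and 44.5% were called in either direction, and 23.8% and 21.9% were lower. Tet1 is among the 7 (adjusted p = 0.0145). Dppa3, which shields methylation in the egg and early embryo, fell 45.6-fold (adjusted p = 0.025), from 29.6, 7.38 and 2.12 CPM with LIF to 0 counts in EGFP, 0.0313 CPM in WT and 0.561 CPM in L122A with RA. Dnmt3l, the cofactor of the de novo DNA methyltransferases, fell 27.9-fold (adjusted p = 0.00139), being between 52.7 and 69.8 CPM with LIF and between 0.622 and 6.70 CPM with RA. None of the 14 passed for either transfectant against EGFP, for L122A against WT, or for LIF withdrawal.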

How the data were processed

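RNA sequencing counts of 9 libraries from RF8 mouse ES cells were analysed. The submitters' processing notes name TopHat2 2.0.11 as aligner and mm9 as build. How reads were counted, whether strand was used and what was filtered is not given in the sources used here. Per the file headers, the deposited counts are raw. Per the file headers, the deposited FPKM values are normalized expression, and in every library 100% of genes above 5 FPKM equalled the count over length and total count within 1%. Column names for no LIF and RA match the sample titles. L122 in a column name was read as L122A, and the LIF columns were assigned by elimination.

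The members and lists were chosen with earlier results of these data known, and the marker and gene lists come from general knowledge. Members with a single match in the name column were kept. All matched members are reported with CPM, tests are given for called members and for uncalled members of their clusters, and of the other lists at most 2 genes each way are named.

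CPM values are scaled by trimmed-mean (TMM) factors of 0.810 to 1.255. Genes with at least 1 CPM in 3 of 9 libraries (13996) were fitted in edgeR 4.0.16 (R 4.3.3, limma 3.58.1) with culture and transfectant as additive factors (robust quasi-likelihood test with 4 residual degrees of freedom and a biological coefficient of variation of 0.325), with Benjamini-Hochberg adjustment over all genes tested. The spread is the departure from additivity. Each SE was obtained by dividing the size of the log2 fold change by the root of its F statistic. The difference of responses was fitted on class means (3 residual degrees of freedom, coefficient of variation 0.287), with WT and L122A as the Nanog class. Both fits were tested on simulated data. Single libraries were compared as CPM ratios with exact 95% Poisson intervals. Where a library had no count, 3 counts were taken as the upper limit.

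Alternatives were RLE factors, total counts, no filter, DESeq2 1.42.0, limma on log2(FPKM + 1) for the additive fit, and each library left out. In the fit of class means each EGFP mean rests on 1 library, so only WT and L122A libraries were left out. The rest was done in Python 3.11.15 with pandas 2.3.3, numpy 2.4.6, matplotlib 3.10.9 and scipy 1.17.1. Other scalings for the count of members below EGFP were chosen after seeing the data. Gene spans of 8 members overlap a listed gene on the other strand, among them Igf2r, Nnat, Gnas, Zrsr1 and Nap1l5, and their reads could be shared with it.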

Additional observations from a re-analysis of the deposited data

Results flagged for a closer look

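Airn, the paternally expressed antisense RNA that silences Igf2r in many tissues, was listed under another gene name and entered none of the comparisons above. It drew attention because a signal appeared in data outside them. Its row (ENSMUSG00000078247, mm9 chromosome 17, 13009249 to 13011409) had 91 counts in EGFP with RA, 41 in WT with RA and 28 in L122A with RA, or 2.83, 1.28 and 0.785 CPM, and 0 counts in each of the 6 libraries without RA. A count of 0 allows up to 3 counts per library, which is 0.1 to 0.152 CPM in those 6 libraries. A second row on the same strand, CT030636.1, which ends just before it and overlaps 28292 bases of Igf2r on the opposite strand, was at 7.31, 4.28 and 0.729 CPM with RA and at 0.0 to 0.305 CPM without. This row was looked up after the values of Airn had been seen.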

How the results depend on the processing

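The direction of each called member was kept under every alternative run. Of the 19 calls against LIF and the 19 against no LIF, 13 each also kept their side of the threshold, while none of the 5 calls of L122A against EGFP did. Counts of members moved as follows. With DESeq2 they became 2 for LIF withdrawal, 8 for WT against EGFP, 9 for L122A against EGFP, 1 for L122A against WT and 1 for the difference in response to LIF withdrawal. Without the filter they became 2 for WT against EGFP, 3 for the difference in response to RA and 2 for that to LIF withdrawal. L122A against EGFP gave 2 with total counts and 1 with limma. Leaving out 1 library gave 0 to 5 members for WT against EGFP and 0 to 7 for L122A against EGFP. It gave 14 to 20 for RA against LIF, 13 to 19 for RA against no LIF, and 0 to 0 in the other 4 comparisons. For the differences in response only WT and L122A libraries were left out. The cause of these moves was not tested.

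Counts over all genes moved with the tool. DESeq2 gave 278 for LIF withdrawal, 614 for WT and 1438 for L122A against EGFP, 51 for L122A against WT, and 264 and 120 for the differences in response to RA and to LIF withdrawal. Without the filter these were 37, 138, 1 for L122A against WT, 684 and 403. Total counts gave 2 for LIF withdrawal, 22 for WT and 253 for L122A against EGFP, and limma 4, 19 and 217. The counts under edgeR were 10, 45, 403, 0, 1 and 0. Leaving out 1 library gave 4232 to 6680 for RA against LIF, 3615 to 6314 for RA against no LIF and 0 to 44 for LIF withdrawal. It gave 0 to 148 for WT and 24 to 558 for L122A against EGFP, and 0 to 0 for L122A against WT. For the differences in response, with only WT and L122A libraries left out, it gave 1 to 166 and 0 to 24. No paired analysis was possible because the labels give no replicate numbers, while the additive fit itself compares cultures within transfectants and transfectants within cultures. Low counts limit Peg12, Ascl2, Slc22a18, Magel2 and Asb4.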

Other observations

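Imprinted small RNAs and a further antisense gene were also read. The 17 SNORD113 rows downstream of Meg3, maternally expressed small nucleolar RNA genes of the Rian region, summed to 30.9, 28.6 and 37.3 CPM in EGFP with LIF, without LIF and with RA, to 12.7, 10.4 and 20.6 CPM in WT and to 17.5, 13.9 and 17.6 CPM in L122A. Like Meg3, they were highest in EGFP in every culture. The rows are near-identical copies among which reads cannot be placed with certainty, and they were chosen after their values had been seen. The paternal snoRNA arrays of the Snrpn cluster had almost no counts, with 0 to 1 over 27 SNORD116 rows and 0 to 2 over 138 SNORD115 rows per library. How reads of repeated copies were counted is not given, so these counts do not show that the arrays were silent. Nespas, antisense in the Gnas locus, ran from 2.40 to 6.04 CPM and did not pass in any comparison (adjusted p = 0.307 for RA against LIF in edgeR).

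The ratio of no LIF to LIF lay on opposite sides of 1 in EGFP and in both Nanog transfectants for 9 members, as single libraries. For 3 of these, all 3 Poisson intervals also excluded 1. The share over all genes was not counted for either criterion, so neither number can be read as particular to imprinted genes. Peg12 and Ascl2, both at low counts, are among the 9. Cdkn1c had a ratio of no LIF to LIF of 0.404 in EGFP (95% Poisson interval 0.344 to 0.473), 1.18 in WT (1.06 to 1.31) and 2.38 in L122A (2.14 to 2.64). Igf2r had ratios of 0.562, 1.74 and 1.30, and Sgce of 2.25, 0.670 and 0.668. In the test of the difference itself none passed (edgeR adjusted p = 0.403, 0.507 and 0.728), with DESeq2 calling Cdkn1c.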
